A study of Mus musculus with 6 samples.

Results

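The genes described here encode 9 enzymes that make the lipids of myelin. They were taken by symbol from the 41605 genes that each of 6 single-cell libraries of mouse sciatic nerve lists, and all 9 were found in all 6 libraries. Hmgcs1 and Sqle belong to the cholesterol pathway, Ugt8a, Fa2h, Gal3st1 and Cers2 to the sphingolipid pathway, and Fasn, Scd1 and Scd2 to fatty acid synthesis. The question was at what level each enzyme was transcribed as Schwann cells (SCs) went from the immature state of the newborn nerve to the myelinating state of the adult nerve, and in the other cells of the nerve.

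Myelin is a membrane in which lipids far outweigh proteins. Cholesterol, galactosylceramide and its sulfated form sulfatide are its characteristic lipids. Galactosylceramide and sulfatide are built largely with very long and saturated or monounsaturated acyl chains. In peripheral nerve the SC makes most of its cholesterol and fatty acids itself, and sterol regulatory element-binding proteins drive many of the genes of both pathways. In outline, HMG-CoA synthase and squalene epoxidase stand early and midway on the path to cholesterol, ceramide synthase and fatty acid 2-hydroxylase shape the ceramide, galactosyltransferase and sulfotransferase add its head group, and fatty acid synthase and the desaturases supply the acyl chains.

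Each library came from the whole sciatic nerve at postnatal day 1 (P1) or 60 (P60), with 3 libraries per age, each a separate Chromium run loaded with an independent sample that pooled cells of male and female mice in equal parts. All animals, at both ages, carried P0Cre, ReYFP and βAct-DsRed, so that a promoter active in the SC lineage drove Cre and labelled SCs with eYFP, while ubiquitous DsRed served to sort nerve cells of all types away from debris. At P1 only, the sort also turned away part of the eYFP-labelled SCs to limit their share, so the number of SCs per age is partly set by the gate. There was no other genotype and no treatment. Each library held 1 age, and whether libraries of the 2 ages were handled together is not stated. Age therefore cannot be told apart from this difference in sorting or from differences in handling between runs.

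The promoters of 3 members are shown because they differ in the motifs described below, and because Hmgcs1 and Fasn are textbook targets of sterol regulatory element-binding proteins. Capitals mark the 9 letters TCACNCCAC, the core of a sterol regulatory element, and the 5 letters CCAAT, the box bound by NF-Y, on either strand. The sequences are RefSeq's for GRCm38.p6 and run from 250 bases before to 50 bases after the annotated start, 5′ to 3′ on the strand of the gene.
Hmgcs1, chr13:119690101-119690400, plus strand: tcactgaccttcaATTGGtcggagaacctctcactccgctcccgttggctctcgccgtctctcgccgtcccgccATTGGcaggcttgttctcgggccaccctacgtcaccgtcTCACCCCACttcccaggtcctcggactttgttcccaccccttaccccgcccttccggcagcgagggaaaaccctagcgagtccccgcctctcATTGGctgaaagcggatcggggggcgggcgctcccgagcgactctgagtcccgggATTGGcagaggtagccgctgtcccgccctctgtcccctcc
Fasn, chr11:120824498-120824797, minus strand: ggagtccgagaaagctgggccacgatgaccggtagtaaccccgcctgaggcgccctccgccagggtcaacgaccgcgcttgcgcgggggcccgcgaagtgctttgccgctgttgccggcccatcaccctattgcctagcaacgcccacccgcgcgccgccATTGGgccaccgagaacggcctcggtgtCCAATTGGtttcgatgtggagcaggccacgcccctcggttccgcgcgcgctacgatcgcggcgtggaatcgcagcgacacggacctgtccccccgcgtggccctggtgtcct
Ugt8a, chr3:125938603-125938902, minus strand: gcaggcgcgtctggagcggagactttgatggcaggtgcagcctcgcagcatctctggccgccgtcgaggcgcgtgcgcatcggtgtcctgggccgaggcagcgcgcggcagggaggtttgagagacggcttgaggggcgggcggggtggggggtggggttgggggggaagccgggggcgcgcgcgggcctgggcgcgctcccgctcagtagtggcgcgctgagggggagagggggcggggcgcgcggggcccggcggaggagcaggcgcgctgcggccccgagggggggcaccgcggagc

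In all, 8 promoters of 5 members were found (3 of Gal3st1, 2 of Cers2 and 1 each of Hmgcs1, Fasn and Ugt8a). TCACNCCAC stood in 1 of the 8, that of Hmgcs1, as TCACCCCAC at base -137 from the start. Of all 32817 mouse promoters in the table, 1.24% held it. CCAAT stood in 6 of the 8, against 37.4% of all promoters, and the Hmgcs1 window held it 4 times. These counts include 2 Gal3st1 windows that overlap and hold the same CCAAT and ACAANG letters. The Ugt8a window held none of the motifs searched, which also included GCGTGGGCG of the Egr family (0 of 8, 0.612% of all) and ACAANG of the Sox family (3 of 8, 41.3% of all). A match is a stretch of letters and not a shown binding site.

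All 9 genes were annotated as protein-coding on GRCm38. Hmgcs1 lay at chr13:119690379-119708260, Sqle at chr15:59315077-59331192, Ugt8a at chr3:125865271-125938619, Fa2h at chr8:111345135-111393824, Gal3st1 at chr11:3983636-3999326, Cers2 at chr3:95314791-95323599, Fasn at chr11:120805846-120824547, Scd1 at chr19:44394455-44407879 and Scd2 at chr19:44293674-44306864. Exons of Hmgcs1 overlapped the antisense gene Gm48342, and those of Cers2 overlapped 6330562C20Rik and the 3′ end of Setdb1 on the other strand. On the same strand, Mir5114 lay within an exon of Scd2. Scd1 and Scd2 are close copies on chromosome 19. Of 4742 stretches of 91 bases in the longest Scd1 transcript, 57 also stood in Scd2, but 0 of 410 did in its last 500 bases, where 3′ reads fall.

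After a filter on genes per cell, the libraries held 3435 to 4586 cells and 20092957 to 29371559 unique molecular identifiers (UMIs, counts of captured RNA molecules). SCs were plentiful at P1 (870, 1025 and 1002 cells, median 6009 to 6477 UMIs) and few at P60 (89, 127 and 203 cells, median 1910 to 2904 UMIs), and P60 replicate 3 had the lowest depth and the highest share of cells over 10% mitochondrial UMIs (16.2%). Between 13 and 32 cell barcodes recurred in any pair of libraries. Cells were clustered with the lipid genes left out and named by markers alone. At P1, clusters were immature-like (iSCs, 858 cells), proliferating-like (432 cells) or promyelinating- or myelinating-like (pmSCs, 1565 cells), and at P60 non-myelinating (Remak)-like (nm(R)SCs, 160 cells) or myelinating-like (mSCs, 151 cells).

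Levels below are UMIs summed per library and state or class, given as CPM, a gene's UMIs divided by all UMIs of that sum and scaled to the usual base. The levels of 2 markers describe the named states and are no test of the names. Ngfr, the low-affinity neurotrophin receptor of immature and Remak SCs, averaged 120.2 CPM in iSCs, 4.24 CPM in pmSCs, 71.3 CPM in nm(R)SCs and 0 CPM in mSCs. Ncmap, a protein of non-compact myelin, averaged 9.89, 798, 3.44 and 1921 CPM in the same order. A P1 SC cluster of 650 cells with a median of 21.8% mitochondrial UMIs was kept apart from all states. Differences are log2 ratios with their standard error (SE) from edgeR's quasi-likelihood test over all genes, and a gene is called at a Benjamini-Hochberg adjusted p under 0.05.

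**Figure D1:**
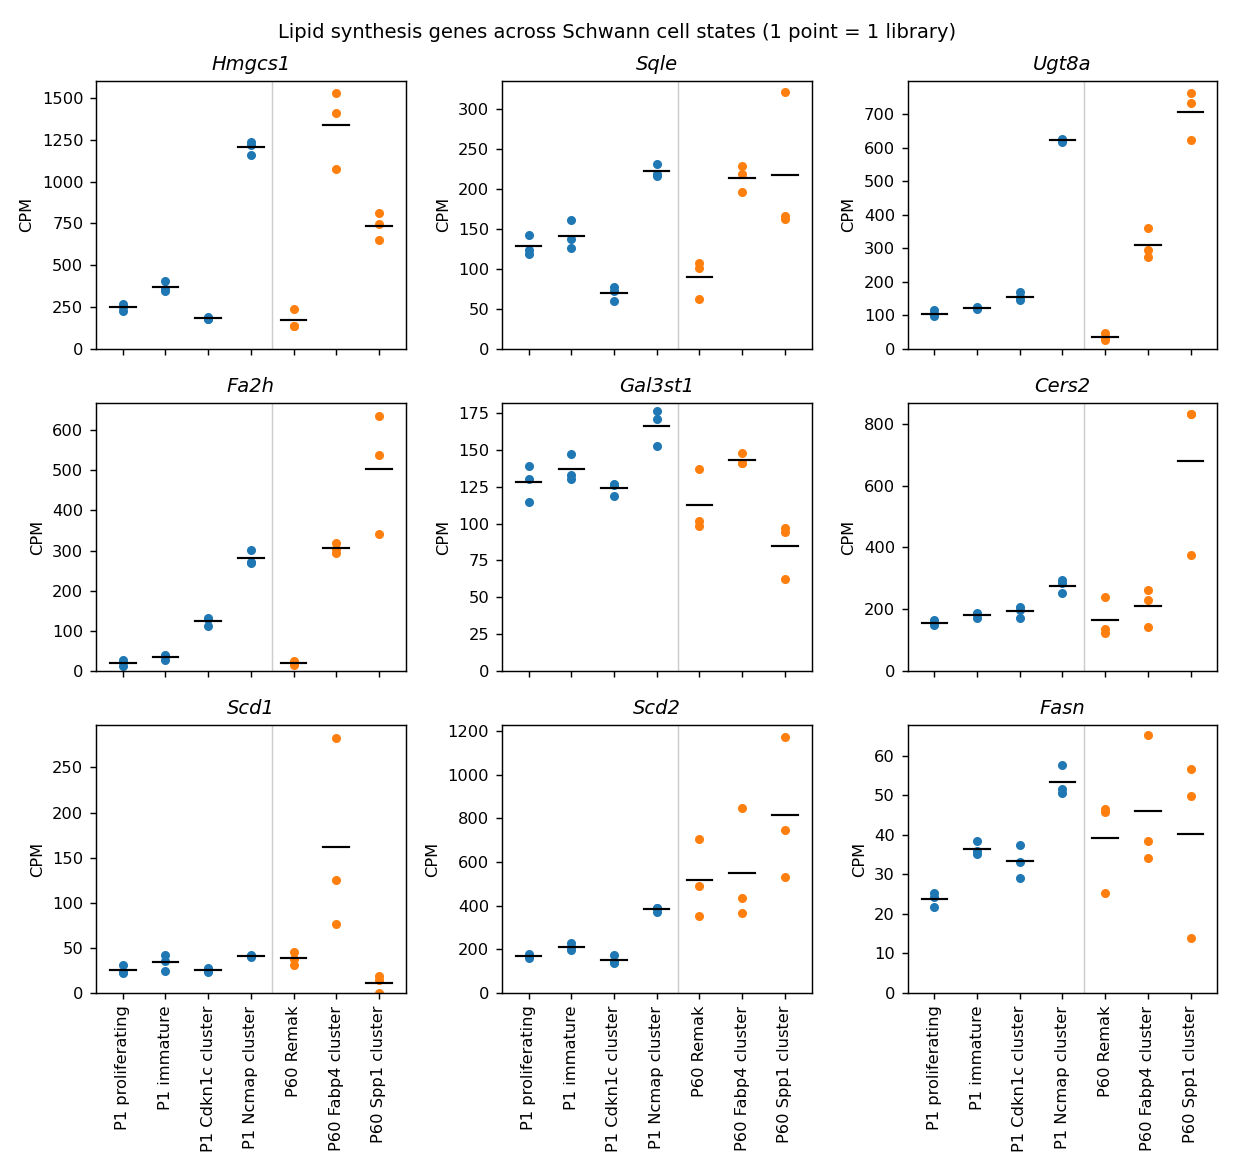
Level of each of the 9 genes in CPM (y axes, linear, one panel per gene) in P1 and P60 SC states. The pmSC and mSC states are shown as the clusters that make them up. Each point is the sum of 1 library, blue for P1 and orange for P60, and the bar is the mean of 3 libraries. Hmgcs1, Ugt8a and Fa2h are low in iSCs and nm(R)SCs and high in the Ncmap cluster of P1 and in both mSC clusters. In the Cdkn1c cluster of P1, Hmgcs1 lies below iSCs, and Ugt8a and Fa2h lie between iSCs and the Ncmap cluster. Gal3st1 has its highest mean in the Ncmap cluster of P1 (166.5 CPM) and its lowest in the Spp1 cluster of P60 (84.6 CPM). Scd2 is high in both P60 states.

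Along the myelinating side, 8 of the 9 genes were higher in pmSCs than in iSCs within the P1 libraries, all but Scd1. Of all 9935 genes tested, 44.0% were called, 21.3% higher and 22.6% lower. At P60, 6 of the 7 genes that passed the filter on low counts were higher in mSCs than in nm(R)SCs, against 36.1% of 2491 genes called, 17.7% higher and 18.4% lower. Gal3st1 was not called, and Scd1 and Fasn had too few UMIs to be tested. In nm(R)SCs, Ugt8a and Fa2h gave only 12 and 7 UMIs over the libraries, so they passed this filter through mSCs alone. Their higher calls at P60 thus partly follow from the filter. Clusters were named by genes of these same cells, so counts over all genes partly follow from the naming, in which no lipid gene took part.

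Hmgcs1 makes HMG-CoA, from which the mevalonate pathway to cholesterol starts. In replicates 1, 2 and 3 it stood at 345, 408 and 360.2 CPM in iSCs and at 877, 894 and 931 CPM in pmSCs. At P60 it stood at 137, 241 and 134 CPM in nm(R)SCs (9, 19 and 26 UMIs) and at 872, 1186 and 1169 CPM in mSCs. At each age the lowest myelinating library lay above the highest non-myelinating one. The difference was 1.41 ± 0.04 at P1 (adjusted p = 1.15e-55) and 2.85 ± 0.22 at P60 (adjusted p = 1.1e-12). Between ages, Hmgcs1 was lower in nm(R)SCs than in iSCs by -1.24 ± 0.20 (adjusted p = 7.65e-06), with no overlap. In mSCs against pmSCs the libraries overlapped, and the difference of 0.20 ± 0.11 did not pass (adjusted p = 0.203). That last difference was called when any 1 P1 library was left out (Hmgcs1 0.47 to 0.51, adjusted p = 0.0282 to 0.0387), where 3031 to 3034 genes instead of 9405 passed the filter.

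Sqle, squalene epoxidase, carries out the first oxygenation on the way to sterols. It stood at 126, 161 and 137 CPM in iSCs, at 184, 165 and 179 CPM in pmSCs, at 107, 101 and 62.0 CPM in nm(R)SCs (7, 8 and 12 UMIs) and at 193, 263 and 180.2 CPM in mSCs. The groups did not overlap within either age, but the highest iSC and the lowest pmSC library were close. Sqle rose from iSCs to pmSCs by 0.45 ± 0.07 (adjusted p = 5.4e-08) and was higher in mSCs than in nm(R)SCs by 1.41 ± 0.31 (adjusted p = 0.000299), a call that DESeq2 did not make (1.38, adjusted p = 0.077). It was lower in nm(R)SCs than in iSCs by -0.85 ± 0.28 (adjusted p = 0.0156). This fall was lost for Sqle without P1 replicate 2 (-0.60, adjusted p = 0.0792), without P60 replicate 3 (-0.67, adjusted p = 0.187) and with another scaling of the cells before clustering (-0.63, adjusted p = 0.0829). For mSCs against pmSCs the difference was 0.20 ± 0.17 (adjusted p = 0.403), with overlap, and Sqle passed without P1 replicate 1 (0.52, adjusted p = 0.0278) or 3 (0.49, adjusted p = 0.0459).

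Ugt8a, ceramide galactosyltransferase, makes galactosylceramide, the hallmark glycolipid of myelin. It held 118, 125 and 122 CPM in iSCs and 492, 472 and 486 CPM in pmSCs. At P60 it held 45.8, 25.3 and 36.2 CPM in nm(R)SCs, from only 3, 2 and 7 UMIs, and 539, 405 and 512 CPM in mSCs. The myelinating libraries thus stood far above the others at both ages. The difference was 2.12 ± 0.06 at P1 (adjusted p = 2.04e-58) and 3.86 ± 0.31 at P60 (adjusted p = 2.14e-12). Ugt8a was lower in nm(R)SCs than in iSCs by -1.81 ± 0.34 (adjusted p = 5.93e-05). In mSCs it stood at the level of pmSCs, with a difference of -0.04 ± 0.12 (adjusted p = 0.828) and overlapping libraries.

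Fa2h, fatty acid 2-hydroxylase, puts the hydroxyl group on the acyl chains of myelin galactolipids. It held 25.8, 36.1 and 38.5 CPM in iSCs, 249.8, 219.8 and 231 CPM in pmSCs, 15.3, 25.3 and 20.7 CPM in nm(R)SCs (1, 2 and 4 UMIs) and 459, 327 and 413 CPM in mSCs. Each of the 3 myelinating libraries was higher than every non-myelinating one at its age, and every mSC library was higher than every pmSC one. Fa2h rose by 2.93 ± 0.10 from iSCs to pmSCs (adjusted p = 3.42e-51), the most of the 9 genes. It was higher by 4.32 ± 0.36 in mSCs than in nm(R)SCs (adjusted p = 3.66e-12) and by 0.73 ± 0.14 in mSCs than in pmSCs (adjusted p = 0.000332). For nm(R)SCs against iSCs the difference was -0.73 ± 0.54 (adjusted p = 0.323).

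Gal3st1, the sulfotransferase that turns galactosylceramide into sulfatide, did not follow Ugt8a. It held 130.4, 133 and 148 CPM in iSCs, 162, 142 and 159 CPM in pmSCs, 137, 101 and 98.1 CPM in nm(R)SCs (9, 8 and 19 UMIs) and 119.8, 128 and 105 CPM in mSCs. The ranges of the states overlapped within each age. The difference of 0.30 ± 0.07 from iSCs to pmSCs passed the test (adjusted p = 0.000279). Scaling by library size alone (Gal3st1 0.16, adjusted p = 0.0541), DESeq2 (0.30, adjusted p = 0.0679) and another scaling before clustering (0.14, adjusted p = 0.258) did not call it. At P60 the difference was 0.18 ± 0.33 (adjusted p = 0.727). Between ages it was -0.45 ± 0.20 in mSCs against pmSCs (adjusted p = 0.0894), although the libraries did not overlap, and -0.40 ± 0.24 in nm(R)SCs against iSCs (adjusted p = 0.205).

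Cers2, the ceramide synthase for very long acyl chains, held 173, 185 and 189 CPM in iSCs, 250.4, 238 and 266 CPM in pmSCs, 122, 241 and 134 CPM in nm(R)SCs and 473, 476 and 297 CPM in mSCs. The myelinating libraries lay above the non-myelinating ones at both ages. The rise was 0.60 ± 0.06 from iSCs to pmSCs (adjusted p = 1.32e-15) and 1.38 ± 0.24 from nm(R)SCs to mSCs (adjusted p = 1.63e-05). Cers2 was also higher in mSCs than in pmSCs by 0.65 ± 0.15 (adjusted p = 0.00197), with no overlap. This call was lost without P60 replicate 1 (Cers2 0.44, adjusted p = 0.0552) or P60 replicate 2 (0.46, adjusted p = 0.0632). In nm(R)SCs against iSCs it was -0.25 ± 0.21 (adjusted p = 0.399), and Cers2 passed there only without P60 replicate 2 (-0.63, adjusted p = 0.0434) or with no filter on low counts (-0.59, adjusted p = 0.0391).

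Fasn, fatty acid synthase, makes palmitate. It held 35.1, 38.4 and 35.9 CPM in iSCs and 45.5, 48.5 and 47.7 CPM in pmSCs, with no overlap. At P60 it rested on few counts, with 3, 2 and 9 UMIs in nm(R)SCs (45.8, 25.3 and 46.5 CPM) and 4, 6 and 10 UMIs in mSCs (26.6, 42.6 and 58.1 CPM). Fasn rose from iSCs to pmSCs by 0.51 ± 0.13 (adjusted p = 0.000625), which DESeq2 did not call (0.51, adjusted p = 0.0934). Neither age difference passed, at -0.19 ± 0.31 for mSCs against pmSCs (adjusted p = 0.703) and 0.15 ± 0.42 for nm(R)SCs against iSCs (adjusted p = 0.825).

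Scd1 and Scd2, the stearoyl-CoA desaturases, place the double bond in oleate and palmitoleate. Scd2 held 209, 230.1 and 199 CPM in iSCs and 314, 310.3 and 317 CPM in pmSCs. At P60 it held 488, 355 and 708 CPM in nm(R)SCs and 586, 426 and 1000 CPM in mSCs. Both P60 states thus stood above both P1 states in every library, and P60 replicate 3 was the highest in both. Scd2 rose by 0.70 ± 0.06 from iSCs to pmSCs (adjusted p = 4.61e-21), by 1.38 ± 0.17 from iSCs to nm(R)SCs (adjusted p = 5.19e-08) and by 1.07 ± 0.17 from pmSCs to mSCs (adjusted p = 4.03e-05). Between the P60 states the libraries overlapped. The difference of 0.48 ± 0.19 was at the threshold (adjusted p = 0.0449), and Scd2 lost the call without P60 replicate 1, 2 or 3 (0.38 to 0.52, adjusted p = 0.0753 to 0.348), with DESeq2 (0.46, adjusted p = 0.457) and with library size alone (0.38, adjusted p = 0.131).

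Scd1 held 35.8, 24.1 and 42.5 CPM in iSCs and 36.6, 35.1 and 36.9 CPM in pmSCs, which overlapped. At P60 it held 45.8, 38.0 and 31.0 CPM in nm(R)SCs (3, 3 and 6 UMIs) and 46.6, 85.3 and 151 CPM in mSCs (7, 12 and 26 UMIs). The mSC libraries were the highest and the most spread. The P1 difference was 0.21 ± 0.14 (adjusted p = 0.249). Scd1 was higher in mSCs than in pmSCs by 1.37 ± 0.30 (adjusted p = 0.00127), but without P60 replicate 3 this was 0.72 (adjusted p = 0.165). In nm(R)SCs against iSCs the difference was 0.01 ± 0.48 (adjusted p = 0.99).

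Counted by comparison, 4 of the 9 genes were higher in mSCs than in pmSCs (Fa2h, Cers2, Scd1 and Scd2) and none was lower by edgeR. Here 29.5% of all 9405 genes were called, 13.6% higher and 15.9% lower. Gal3st1 had an unadjusted p of 0.0307, and with no filter on low counts Gal3st1 was called lower (-0.61, adjusted p = 0.0227). For nm(R)SCs against iSCs, Scd2 was higher and Hmgcs1, Sqle and Ugt8a were lower, against 35.7% of 7484 genes called, 17.4% higher and 18.3% lower. These comparisons share their libraries with those within each age, so their values are not independent of them.

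The gap between the myelinating and the non-myelinating state differed with age for 6 of the 9 genes when tested directly, all wider at P60. Of all 8700 genes, 8.33% were called, 5.20% wider in the positive and 3.14% in the negative direction. The added gap was 1.90 ± 0.39 for Ugt8a (adjusted p = 4.13e-05), 1.61 ± 0.21 for Hmgcs1 (adjusted p = 6.03e-12) and 1.11 ± 0.32 for Sqle (adjusted p = 0.00955). It was 1.65 ± 0.48 for Scd1 (adjusted p = 0.0114), 1.58 ± 0.51 for Fa2h (adjusted p = 0.0286) and 0.92 ± 0.24 for Cers2 (adjusted p = 0.00296). As the levels above show, that of Hmgcs1, Sqle and Ugt8a went with lower levels in nm(R)SCs than in iSCs, and that of Scd1 and Cers2 with higher levels in mSCs than in pmSCs. That of Fa2h went with both (-0.73 for nm(R)SCs against iSCs and 0.73 for mSCs against pmSCs). For Gal3st1 (0.03 ± 0.34), Scd2 (-0.06 ± 0.16) and Fasn (-0.09 ± 0.55) no difference in the gap passed. DESeq2 called 3 of the 6, and leaving out 1 library left 3 to 6. Without P60 replicate 3, Sqle (1.04, adjusted p = 0.164), Fa2h (1.64, adjusted p = 0.27) and Scd1 (0.82, adjusted p = 0.678) lost the call. Fa2h also lost it without P1 replicate 2 or 3 or P60 replicate 1 or 2 (1.39 to 1.74, adjusted p = 0.0573 to 0.153), Scd1 without P1 replicate 3 (1.41, adjusted p = 0.0781), Cers2 without P60 replicate 1 (0.71, adjusted p = 0.121) and Sqle without P60 replicate 2 (1.06, adjusted p = 0.108). With another total for scaling before clustering, Fa2h (0.83, adjusted p = 0.346) and Cers2 (0.49, adjusted p = 0.165) lost it.

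**Figure D2:**
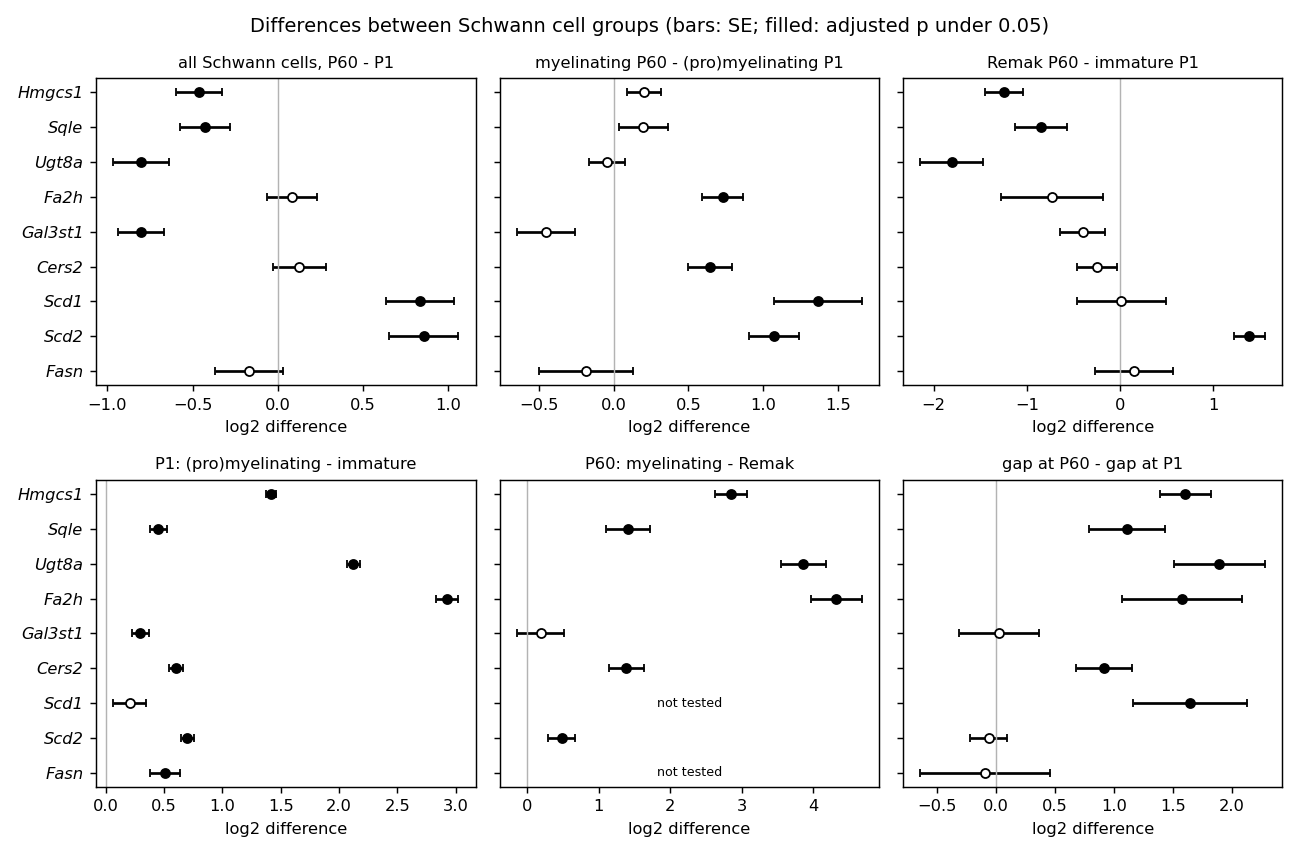
Log2 difference of each of the 9 genes (y axis) in 6 comparisons of SCs (panels), with its SE. Filled points passed the test at an adjusted p under 0.05, open points did not, and genes with too few UMIs are written as not tested. The state comparisons lie to the right of 0 at both ages, while Hmgcs1, Sqle and Ugt8a lie to the left of 0 for nm(R)SCs against iSCs and Scd2 lies to the right.

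The states were not uniform within. At P1 the pmSC state joined a cluster with Ncmap among its leading genes (1038 cells) and one led by Cdkn1c, Pou3f1 and Egr2, regulators of the promyelinating stage (527 cells). Hmgcs1 held 1163, 1236 and 1222 CPM in the first cluster but 191, 177 and 180.1 CPM in the second, which is below iSCs. Sqle was low in the same cells, at 72.7, 59.0 and 76.8 CPM in the Cdkn1c-led cluster against 231, 216 and 218 CPM in the other. Ugt8a held 627, 624 and 618 against 168, 153 and 145 CPM, and Fa2h 300.2, 272 and 269 against 129, 111 and 131 CPM. Scd2 held 387, 390 and 373 against 139, 143 and 172 CPM. Scd1 (40.2, 40.9 and 42.0 against 28.0, 22.8 and 23.9 CPM) and Fasn (50.6, 57.8 and 51.6 against 33.2, 29.1 and 37.6 CPM) were lower in the Cdkn1c-led cluster too, where both overlapped iSCs. So the Cdkn1c-led cells had Ugt8a and Fa2h above the iSC level, and the cholesterol enzymes and Scd2 below it. Gal3st1 (176, 152 and 171 against 127, 119 and 126 CPM) and Cers2 (283, 253 and 293 against 172, 208 and 198 CPM) differed less. Clusters were formed on these cells, so these values are a description.

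Without the Cdkn1c-led cells, an alternative chosen after seeing the data, Scd1 also passed in pmSCs against iSCs (0.42, adjusted p = 0.0153). Ugt8a was then lower in mSCs than in pmSCs (-0.34, adjusted p = 0.0407), and the gap no longer differed with age for Sqle (0.75, adjusted p = 0.167) or Fa2h (1.28, adjusted p = 0.126). With the mitochondria-rich P1 SC cluster counted as pmSC, also chosen afterwards, Scd1 was higher in pmSCs than in iSCs (0.44, adjusted p = 0.00634) and Scd2 kept its call in mSCs against pmSCs at a smaller size (0.69, adjusted p = 0.00714). Fibroblast markers summed to 21910 to 26270 CPM in that cluster, and their part was not tested.

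At P60 the mSC state joined a cluster of 91 cells led by Fabp4 and one of 60 cells led by Spp1. Scd1 stood almost only in the first, at 76.9, 125 and 283 CPM (6, 11 and 26 UMIs), against 13.8, 18.9 and 0 CPM (1, 1 and 0 UMIs, where a count of 3 is the limit that 0 allows). Ugt8a was higher in the Spp1-led cluster (733, 624 and 762 CPM) than in the Fabp4-led one (359, 273 and 294 CPM), as was Cers2 (830, 832 and 375 against 141, 262 and 228 CPM), while Hmgcs1 was higher in the Fabp4-led cluster (1077, 1412 and 1533 against 650, 813 and 749.8 CPM). Adipocyte markers (Adipoq, Plin1, Car3, Cdo1 and Cidec) summed to 0, 250 and 261 CPM in the Fabp4-led cluster, with 0 of the 5 genes at 0 over the libraries, and to 27.7, 18.9 and 0 CPM in the Spp1-led cluster, where 4 were at 0. In pmSCs they summed to 1.22 to 2.38 CPM, with 3 at 0. Their part in the Scd1 result was not tested. Immune markers summed to 71.0 to 1178 CPM in mSCs and 13.7 to 26.9 CPM in pmSCs. In the Spp1-led cluster they summed to 2311, 75.6 and 37.5 CPM (167, 4 and 3 UMIs), and in the Fabp4-led one to 128, 68.3 and 152 CPM. The leading genes of the Spp1-led cluster also included H2-DMa, H2-DMb1, Lyz1 and Cd74. The part of immune RNA in the levels of either cluster was not tested.

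A list of 14 genes that respond to tissue dissociation moved with age and state. It summed to 7696 to 8196 CPM in iSCs, 2857 to 2957 CPM in pmSCs, 9583 to 13470 CPM in nm(R)SCs and 10830 to 14760 CPM in mSCs. Of its genes, 11 of 14 were higher in mSCs than in pmSCs (13.6% of all genes) and 11 lower in pmSCs than in iSCs (22.6% of all genes). Within P60, 2 of 13 were higher in mSCs than in nm(R)SCs and 3 lower, against 17.7% and 18.4% of all genes. The sum was higher in mSCs in each of the 3 libraries (10830 against 9583, 11360 against 9920 and 14760 against 13470 CPM). Its part in the lipid gene differences was not tested. Fibroblast markers summed higher in iSCs (7152 to 7233 CPM) than in pmSCs (3073 to 3130 CPM), and higher in nm(R)SCs (2787 to 3586 CPM) than in mSCs (1336 to 1884 CPM), and their part was not tested.

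The other genes of the 3 pathways were taken from fixed lists without the members. In pmSCs against iSCs, 17 of 18 cholesterol genes tested were higher and 0 lower, with a median of 1.18 against 0.00 over all genes. Here 21.3% of all genes were higher and 22.6% lower. Mvd, which makes isopentenyl diphosphate, rose by 1.71 ± 0.10 (adjusted p = 5.39e-32) and Lss, lanosterol synthase, by 1.60 ± 0.20 (adjusted p = 7.54e-12). Of 15 fatty acid genes 10 were higher and 2 lower (median 0.71), led by the elongases Elovl7 (3.61 ± 0.13, adjusted p = 2.31e-48) and Elovl1 (2.05 ± 0.04, adjusted p = 2.15e-69). Of 14 sphingolipid genes 8 were higher and 2 lower (median 0.32), led by B4galt6, a lactosylceramide synthase (0.97 ± 0.21, adjusted p = 7.63e-05), and Sptlc2, a subunit of serine palmitoyltransferase (0.90 ± 0.10, adjusted p = 5.03e-14).

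In mSCs against nm(R)SCs, 9 of 12 cholesterol genes were higher and 0 lower (median 1.98 against 0.01 over all genes), while 17.7% of all genes were higher and 18.4% lower. Cyp51, lanosterol demethylase, was higher by 2.64 ± 0.39 (adjusted p = 8.87e-07). Of 6 fatty acid genes 4 were higher (median 1.49), led again by Elovl7 (5.62 ± 0.67, adjusted p = 1.46e-08) and Elovl1 (3.04 ± 0.25, adjusted p = 3.66e-12). Of 8 sphingolipid genes 1 was higher, Sptlc2 (0.98 ± 0.39, adjusted p = 0.0462), and the median was -0.01. Ugt8a, Fa2h and Cers2 thus had called differences at P60 while 7 of the 8 other sphingolipid genes tested had none.

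Between ages the lists did not move one way. For mSCs against pmSCs, 13.6% of all genes were higher and 15.9% lower, and the sphingolipid and fatty acid counts lie near these shares. In mSCs against pmSCs 6 of 18 cholesterol genes were higher and 2 lower (median -0.02 against -0.08), with Tm7sf2, a sterol reductase, at 1.32 ± 0.43 (adjusted p = 0.0253) and Acat2, an acetyl-CoA acetyltransferase, at -1.26 ± 0.22 (adjusted p = 0.000126). Of 15 sphingolipid genes 3 were higher and 2 lower (median 0.14), with Arsa, the sulfatide-degrading arylsulfatase, at 1.86 ± 0.64 (adjusted p = 0.0321) and Cers4 at 1.11 ± 0.23 (adjusted p = 0.000749). Of 14 fatty acid genes 3 were higher and 3 lower (median 0.02), with Acss2, which makes acetyl-CoA from acetate, at 1.42 ± 0.34 (adjusted p = 0.00313) and Hacd1 at -2.69 ± 0.53 (adjusted p = 0.000469).

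In nm(R)SCs against iSCs 17.4% of all genes were higher and 18.3% lower. Of 17 cholesterol genes 1 was higher and 7 lower (median -0.83 against -0.08), led by Mvd (-1.72 ± 0.56, adjusted p = 0.015) and Mvk, mevalonate kinase (-1.66 ± 0.45, adjusted p = 0.00403). Of 13 fatty acid genes 3 were higher and 5 lower (median -0.77), with Hacd2 at -2.39 ± 0.77 (adjusted p = 0.0145) and Me1, malic enzyme, at -2.18 ± 0.79 (adjusted p = 0.0309). Of 14 sphingolipid genes 7 were higher and 3 lower (median 0.45), with Arsa at 3.65 ± 0.61 (adjusted p = 1.14e-05) and B4galt6 at 1.65 ± 0.52 (adjusted p = 0.0122). In the gap with age, 7 of 18 cholesterol genes were wider (median 1.01), against 5.20% of all genes, among them Tm7sf2 (3.5 ± 1.14, adjusted p = 0.0297). Of 14 fatty acid genes 2 were wider, Hacd2 (3.00 ± 0.92, adjusted p = 0.0181) and Elovl1 (1.15 ± 0.29, adjusted p = 0.00149), and of 14 sphingolipid genes 0 passed by edgeR.

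**Figure D3:**
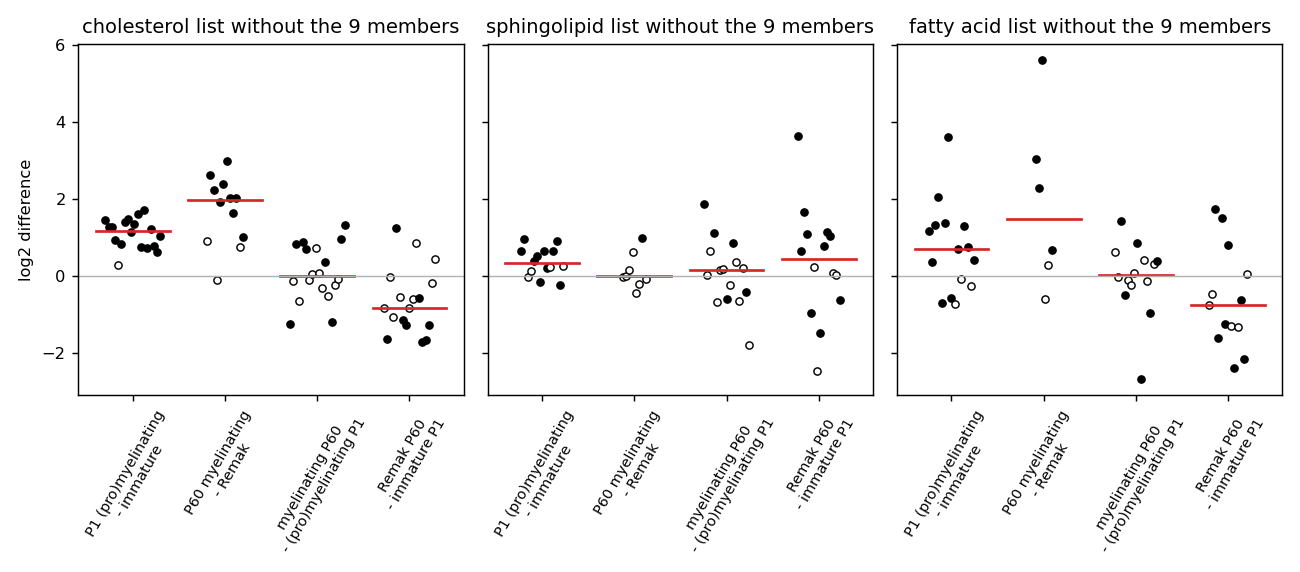
Log2 difference of the other genes of the cholesterol, sphingolipid and fatty acid lists (members left out) in 4 comparisons of SCs. Each point is a gene that passed the filter on low counts, filled where it passed the test, and the red line is the median of the list. The cholesterol list has its median at 1.18 in pmSCs against iSCs, at 1.98 in mSCs against nm(R)SCs and at -0.83 in nm(R)SCs against iSCs.

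Taken over all SCs of a library, age changed 6 of the 9 genes, against 45.2% of 11202 genes called, 23.9% higher and 21.4% lower. This mixes states, since pmSCs were the largest P1 state. Scd2 was higher at P60 (457, 330.1 and 707 CPM) than at P1 (265, 267 and 266 CPM), by 0.86 ± 0.20 (adjusted p = 0.00358), and Scd1 (46.0, 66.0 and 74.0 against 34.2, 31.5 and 37.2 CPM) by 0.83 ± 0.20 (adjusted p = 0.00383). With the mitochondria-rich P1 cluster kept among SCs, Scd2 no longer passed (0.51, adjusted p = 0.0599) and Fasn was lower (-0.58, adjusted p = 0.0284). Ugt8a fell from 326, 336 and 340.4 to 261, 151 and 195 CPM (-0.80 ± 0.16, adjusted p = 0.00131). Gal3st1 fell from 145, 139 and 151 to 89.0, 87.2 and 84.3 CPM (-0.80 ± 0.13, adjusted p = 0.000308). Neither gene overlapped between the ages. For Hmgcs1 (-0.46 ± 0.13, adjusted p = 0.0129) and Sqle (-0.43 ± 0.14, adjusted p = 0.027) the call did not last. It was lost without SCs that held 10 or more Dcn UMIs, the mark of fibroblast RNA (Hmgcs1 -0.20, adjusted p = 0.265, and Sqle -0.24, adjusted p = 0.286), and without any 1 P1 library (Hmgcs1 -0.38 to -0.32, Sqle -0.31 to -0.28), and Sqle also without P60 replicate 3 (-0.31, adjusted p = 0.065). Fa2h (0.08 ± 0.15), Cers2 (0.13 ± 0.15) and Fasn (-0.17 ± 0.20) did not pass.

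The remaining genes of the lists gave 2 higher and 10 lower of 18 for cholesterol (median -0.51 against 0.04), 5 higher and 3 lower of 17 for sphingolipids (median 0.06) and 3 higher and 5 lower of 15 for fatty acids (median -0.39). Of all genes, 23.9% were higher and 21.4% lower. Mvk (-1.55 ± 0.21, adjusted p = 4.89e-05) and Acat2 (-1.42 ± 0.18, adjusted p = 2.64e-05) led the first, Sgms2, a sphingomyelin synthase (3.95 ± 0.67, adjusted p = 0.000347), and Arsa (2.27 ± 0.41, adjusted p = 0.000577) the second, and Acss2 (1.19 ± 0.25, adjusted p = 0.00173) and Hsd17b12 (-1.17 ± 0.16, adjusted p = 6.9e-05) the third.

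The other cells of the nerve were fibroblasts (including perineurial and epineurial cells), endothelial, mural and immune cells. In both ages 8 of the 9 genes were higher in SCs than in each of these 4 classes, while 13.2% of 12937 genes at P1 and 6.10% of 12682 genes at P60 were. The exception was Scd1. At P60, Ugt8a, Fa2h and Gal3st1 passed the filter on low counts through SCs alone. They had at most 9, 9 and 5 UMIs in any library of the other classes. The smallest difference of Hmgcs1 was the one to fibroblasts at P1, 2.31 ± 0.05 (adjusted p = 2.1e-29). The smallest differences of the other 7 genes ran from 0.81 (Scd2) to 5.63 (Ugt8a) at P1 and from 0.91 (Fasn) to 7.18 (Fa2h) at P60. The smallest difference of Fasn at P60 no longer passed without P60 replicate 3 (0.73, adjusted p = 0.0914).

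Ugt8a, Fa2h and Gal3st1 marked SCs. Ugt8a averaged 334 ± 7.5 CPM (SD, n = 3 libraries) in P1 SCs and 3.64 to 6.67 CPM in the other classes, and 202 ± 55 CPM in P60 SCs and 0.339 to 1.37 CPM elsewhere. Fa2h averaged 151 ± 3.0 and 169 ± 44 CPM in SCs, against 2.87 to 4.65 CPM at P1 and 0.318 to 0.801 CPM at P60 elsewhere. Gal3st1 averaged 145 ± 5.8 and 86.8 ± 2.4 CPM, against 2.40 to 5.26 CPM and 0.265 to 0.857 CPM. The levels in the other classes came to 1.09 to 3.63% of the SC level at P1 and 0.168 to 0.987% at P60. RNA of Mbp, a myelin protein that these cells should lack, came to 1.32 to 2.26% and 0.284 to 1.21%, and the median of 10 SC markers to 2.55 to 2.94% and 0.803 to 1.23%. Over the classes, single SC markers ranged from 1.18 to 22.4% at P1 and from 0.164 to 19.8% at P60. The traces of Ugt8a, Fa2h and Gal3st1 outside SCs were thus near the level of Mbp and of this median. Whether they are RNA carried over from SCs was not tested.

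Per cell the picture was alike. Thinned to 1500 UMIs, 39.7 ± 2.3% of mSCs (SD, n = 3) and 24.5 ± 1.1% of pmSCs had a Fa2h UMI, against 4.48 ± 1.7% of nm(R)SCs and 4.4 ± 1.3% of iSCs, and 0.301 and 0.0335% of P1 and P60 fibroblasts. Unthinned shares were 58.6, 70.2, 4.37 and 13.3% in these SC states and 2.00 and 0.204% in fibroblasts, at median depths of 2550, 7146, 2013, 4838, 7688 and 5200 UMIs. In the thinning, 3 mSCs, 11 nm(R)SCs and 67 P60 fibroblasts were too shallow and left out. Shares for Gal3st1 were 20.6, 18.9, 14.7 and 16% in iSCs, pmSCs, nm(R)SCs and mSCs, and for Ugt8a 18.0, 43.1, 5.38 and 43.2%.

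**Figure D4:**
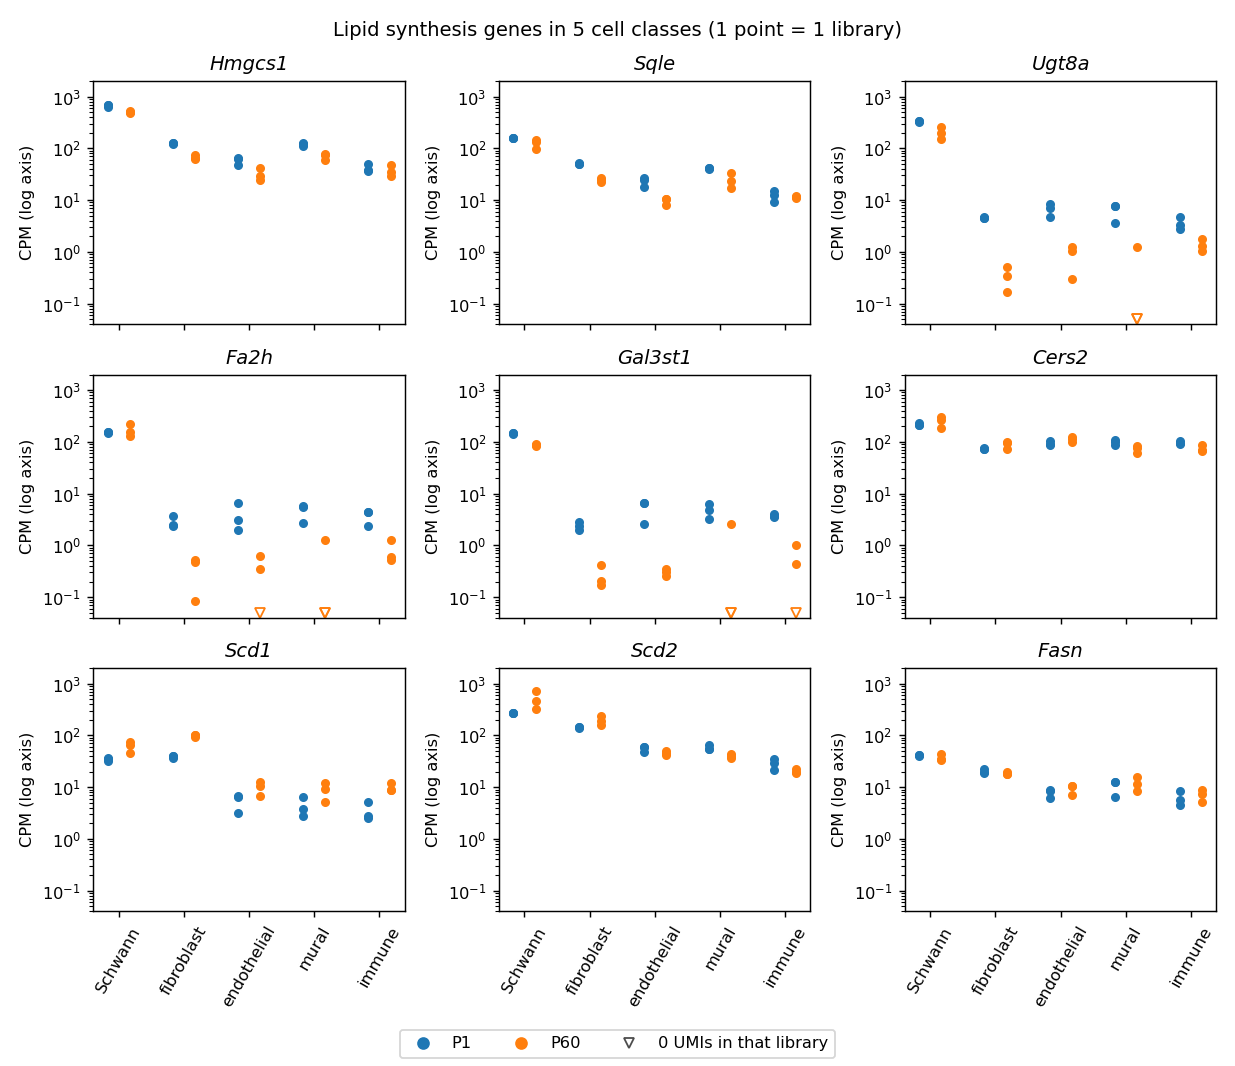
Level of each gene in CPM (y axes, log scale) in SCs, fibroblasts, endothelial, mural and immune cells at P1 (blue) and P60 (orange), 1 point per library. Open triangles at the bottom are libraries with 0 UMIs. Ugt8a, Fa2h and Gal3st1 stand well above 50 CPM in SCs and below 10 CPM elsewhere, Cers2 stands between 60 and 304 CPM in every class, and Scd1 is highest in P60 fibroblasts.

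Hmgcs1 and Sqle were transcribed in every class. At P1 Hmgcs1 averaged 665 ± 35 CPM in SCs, 127 ± 2.4 in fibroblasts, 119.5 ± 6.0 in mural, 58.2 ± 9.0 in endothelial and 41.6 ± 7.1 in immune cells. At P60 it averaged 502 ± 29, 68.3 ± 6.8, 71.2 ± 11, 31.8 ± 8.6 and 37.5 ± 10.0 CPM in the same order. Fibroblasts and mural cells overlapped at both ages, as did endothelial and immune cells. Sqle averaged 159 ± 2.3, 51.5 ± 1.5, 41.0 ± 0.42, 23.1 ± 4.9 and 12.3 ± 3.0 CPM at P1, where no neighbours in that order overlapped, and 125 ± 25, 24.4 ± 2.1, 24.6 ± 8.3, 9.73 ± 1.6 and 11.4 ± 0.58 CPM at P60, where fibroblasts and mural cells did.

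Cers2 averaged 219 ± 9.9 CPM in P1 SCs. The other classes followed at 97.7 ± 10.3 CPM (mural), 96.7 ± 5.6 CPM (immune) and 93.6 ± 7.2 CPM (endothelial), which overlapped, and fibroblasts were lowest at 73.8 ± 1.1 CPM. At P60 it averaged 252 ± 58 CPM in SCs, 114 ± 12 CPM in endothelial cells and 88.1 ± 15, 74.0 ± 9.9 and 73.4 ± 12 CPM in fibroblasts, immune and mural cells, of which the last 3 overlapped. Cers2 was the most widely shared of the 4 sphingolipid enzymes, at 29.1 to 45.1% of the SC level in the other classes.

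Scd1 was the one gene that was higher outside SCs. At P1 fibroblasts (38.7 ± 2.1 CPM) and SCs (34.3 ± 2.9 CPM) overlapped, although the test within libraries gave -0.25 ± 0.07 for SCs against fibroblasts (adjusted p = 0.00238). At P60 the levels were 97.5 ± 3.8 and 62.0 ± 14 CPM with no overlap (-0.74 ± 0.18, adjusted p = 0.00235). In endothelial, mural and immune cells Scd1 averaged 3.51 to 5.43 CPM at P1 and 8.76 to 9.93 CPM at P60, and these classes overlapped. Scd2 averaged 266 ± 1.1 CPM in P1 SCs, 143 ± 3.4 in fibroblasts, 57.3 ± 5.7 in mural, 55.0 ± 7.0 in endothelial and 28.3 ± 6.6 CPM in immune cells. At P60 it averaged 498 ± 192, 195 ± 39, 40.0 ± 3.0, 45.8 ± 3.4 and 20.3 ± 1.6 CPM. Mural and endothelial cells overlapped at both ages. Fasn averaged 41.1 ± 1.6 and 37.4 ± 5.0 CPM in SCs and 20.5 ± 1.8 and 18.3 ± 1.0 CPM in fibroblasts, with 6.17 to 10.6 CPM at P1 and 7.12 to 11.7 CPM at P60 in the other 3 classes, which overlapped.

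Within fibroblasts the enzymes differed by nerve layer. Scd1 at P60 was highest in perineurial-like cells, with 126, 129.5 and 156 CPM, against 93.8, 81.6 and 57.2 CPM in epineurial-like and 37.2, 31.0 and 29.3 CPM in endoneurial-like cells, with no overlap. At P1 the order was perineurial (56.0, 54.5 and 55.5 CPM), endoneurial (43.1, 43.0 and 48.3 CPM) and epineurial (27.1, 21.5 and 27.6 CPM). Scd2 had the same leader, with 308, 333 and 473 CPM in P60 perineurial-like cells against 95.03 to 115 CPM in endoneurial-like and 80.02 to 84.6 CPM in epineurial-like cells. Perineurial-like cells of P60 replicate 3 were the highest for both desaturases. The P60 perineurial-like cells joined a cluster of 1994 cells (median of 3.87% mitochondrial UMIs) and one of 464 cells (median of 12.2%). P60 replicate 3 also had the highest share of cells over 10% mitochondrial UMIs (16.2%). The part of the mitochondrial share in these levels was not tested. Hmgcs1 held 131, 136 and 109 CPM in P60 perineurial-like cells, 104, 88.6 and 80.6 CPM in endoneurial-like and 24.9, 25.1 and 28.0 CPM in epineurial-like cells. Sqle was instead highest in endoneurial-like cells at P60, with 81.5, 72.6 and 75.3 CPM against 44.8, 42.7 and 31.8 CPM in perineurial-like cells. Adipocyte markers summed to 222.5 to 312 CPM in P60 perineurial-like and 4.59 to 249.8 CPM in epineurial-like cells, and their part in the Scd1 levels was not tested.

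With age, 7 of the 9 genes were called in fibroblasts, 2 higher and 5 lower, against 59.8% of 14610 genes, 31.0% higher and 28.8% lower. Scd1 rose by 1.34 ± 0.10 (adjusted p = 4.69e-06), from 39.3, 36.3 and 40.5 CPM to 99.8, 99.5 and 93.1 CPM. Scd2 rose by 0.44 ± 0.13 (adjusted p = 0.0154), a call that was lost without any 1 P1 library (Scd2 0.42 to 0.45, adjusted p = 0.0528 to 0.0685). Cers2 (0.27 ± 0.14, adjusted p = 0.128) and Fasn (-0.15 ± 0.12, adjusted p = 0.283) did not pass, but without P60 replicate 3 Cers2 did (0.42, adjusted p = 2.99e-05). Hmgcs1 fell by 0.88 ± 0.11 (adjusted p = 0.000105), from 127, 129 and 124 to 65.2, 76.1 and 63.6 CPM, and Sqle fell by 1.07 ± 0.11 (adjusted p = 3.37e-05), from 50.6, 53.2 and 50.5 to 24.7, 26.2 and 22.2 CPM. The falls of Ugt8a (-3.63 ± 0.30), Fa2h (-2.88 ± 0.42) and Gal3st1 (-3.21 ± 0.35) are between low levels. These genes averaged 4.57, 2.87 and 2.40 CPM at P1 and 0.339, 0.356 and 0.265 CPM at P60. The part of RNA carried over from SCs in these falls was not tested. In the cholesterol list 12 of 18 other genes were lower in fibroblasts and 1 higher (median -0.79 against 0.04), in the fatty acid list 5 of 16 were higher and 2 lower, and in the sphingolipid list 6 of 18 were higher and 1 lower.

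In endothelial cells 3 of 7 tested genes were called, all lower, against 40.0% of 10875 genes, 21.0% higher and 19.0% lower. Hmgcs1 fell by 0.86 ± 0.19 (adjusted p = 0.00396), from 61.3, 48.0 and 65.2 to 29.0, 24.9 and 41.5 CPM, and Sqle fell by 1.22 ± 0.23 (adjusted p = 0.00129), from 24.9, 17.6 and 26.8 to 10.7, 10.6 and 7.94 CPM, both with no overlap. The third, Ugt8a (-2.83 ± 0.47), averaged only 6.67 CPM at P1 and 0.866 CPM at P60. Cers2 (0.30 ± 0.13), Scd1 (0.88 ± 0.36), Scd2 (-0.25 ± 0.14) and Fasn (0.25 ± 0.28) did not pass, and Fa2h and Gal3st1 had too few UMIs to test. Without P60 replicate 3 endothelial cells had 6 calls, among them higher Cers2 (0.39, adjusted p = 0.00206) and Scd1 (1.10, adjusted p = 0.00931).

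In mural cells 1 of 5 tested genes was called, Hmgcs1 (-0.66 ± 0.16, adjusted p = 0.00786), against 33.3% of 8488 genes, 17.8% higher and 15.5% lower, and Sqle was close to the threshold (-0.69 ± 0.25, adjusted p = 0.0507) and passed without P60 replicate 1 (Sqle -0.91, adjusted p = 0.0198), as Scd2 did without P60 replicate 3 (-0.53, adjusted p = 0.0475). Cers2 (-0.33 ± 0.17), Scd2 (-0.40 ± 0.20) and Fasn (0.21 ± 0.36) did not pass in mural cells, and the other 4 genes had too few UMIs to test.

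In immune cells 1 of 6 was called, Scd1 (1.5 ± 0.35, adjusted p = 0.00539), from 5.16, 2.80 and 2.59 CPM (14, 7 and 7 UMIs) to 11.9, 8.72 and 8.64 CPM (20, 17 and 20 UMIs), against 37.5% of 10264 genes, 20.3% higher and 17.2% lower. Hmgcs1 (-0.10 ± 0.21), Sqle (-0.04 ± 0.25), Cers2 (-0.33 ± 0.15), Scd2 (-0.42 ± 0.21) and Fasn (0.25 ± 0.34) did not pass in immune cells, and Ugt8a, Fa2h and Gal3st1 had too few UMIs to test. There 2 genes were called without P1 replicate 2 or P60 replicate 3, and 3 without P60 replicate 1, where Cers2 was lower (-0.45, adjusted p = 0.0464).

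The age change in SCs was then set against the mean age change of the other 4 classes within libraries. Of the 9 genes 4 differed, all more positive in SCs, against 26.1% of 13946 genes, 13.3% more positive and 12.8% more negative. With library size alone, more positive calls made up 68.2% of all calls in place of 51%, with the median of all genes at 0.20. For Scd2 the difference was 0.92 ± 0.14 (adjusted p = 4.94e-06), and Scd2 had been called higher at P60 in SCs and fibroblasts and in no other class. For Ugt8a (1.86 ± 0.30), Fa2h (3.05 ± 0.39) and Gal3st1 (2.32 ± 0.36) the difference rests on traces in the other classes. These were at most 3.63% of the SC level at P1 and 0.987% at P60. The part of RNA carried over from SCs was not tested. Hmgcs1 (0.10 ± 0.14, adjusted p = 0.702) and Sqle (0.26 ± 0.16, adjusted p = 0.237) did not differ by this test. Scd1 (-0.47 ± 0.24, adjusted p = 0.171), Cers2 (0.07 ± 0.11, adjusted p = 0.715) and Fasn (-0.38 ± 0.25, adjusted p = 0.287) did not either.

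Over the means of 13 groups (each class other than SCs at both ages, and the SC states), the profile of each member was compared with those of 11833 genes by Pearson's r of log2(CPM + 10). The groups share libraries, so r is a description. Hmgcs1 was most like Nsdhl (0.992) and Fdps (0.987), and Sqle most like Fdft1 (0.984) and Msmo1 (0.982), all of them enzymes of the same pathway. Ugt8a was most like Mlip (0.992), Fa2h most like Secisbp2l (0.978) and Tm7sf2 (0.971), and Cers2 most like Secisbp2l (0.967) and Sema4c (0.956). Gal3st1 was most like Itgb8 (0.994) and Gjc3 (0.993). Scd2 was most like S100b (0.97) and C1galt1c1 (0.961), Fasn most like Scrn1 (0.958) and S100b (0.957), and Scd1 most like Zfhx4 (0.932) and Gfra1 (0.924). Among the members the closest pair was Hmgcs1 and Sqle (0.969), followed by Ugt8a and Fa2h (0.961), and Scd1 was the least like the others (0.488 with Gal3st1 to 0.853 with Scd2).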

How the data were processed

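Cells were prepared with 10x Chromium 3′ chemistry, version 2. The deposited values are raw UMI counts per gene and cell in filtered matrices. Per the submitters' processing notes the authors made them with Cell Ranger 2.0.2 on GRCm38.p5 (the study's methods name a human build, and the strand setting is not given in the sources used here). Symbols were read from the deposited gene tables.

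Cells with 500 to 5000 genes were kept, which left 11735 P1 cells (from 11827 barcodes) and 12602 P60 cells (from 12683). At both ages this is more than the study states for the same filter, a difference that was not resolved. They were clustered per age in R 4.3.3 with Seurat 5.3.0 (total of 10000, 10 principal components, resolution 0.5 at P1, 0.4 at P60 and 0.3 for SC states), after the lipid genes had been taken out of the variable genes. A cluster was named from at least 3 fixed markers. Clusters over 15% median mitochondrial UMIs and a P60 cluster of mixed markers were set apart. No doublets were removed in the main analysis, and the highest Scrublet scores (scanpy 1.11.5; 2.74 to 3.67% of cells) were left out as an alternative.

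Counts were summed per library and class or state (at least 10 cells) and tested with edgeR 4.0.16 (TMM, filterByExpr with a minimum count of 10, quasi-likelihood F test, Benjamini-Hochberg over all genes). The library was a block where states or classes of the same libraries were compared. Libraries are the replicates, 3 per age. CPM and their SDs were computed from these sums. A limit for counting error is given only for counts of 0, and none is given for the other low counts. Each SE was derived from the F test, as the absolute log2 difference divided by the square root of F. The tests were tested on simulated data. DESeq2 1.42.0, other scalings, no filter, left-out libraries, left-out cells and other clusterings were alternatives. The members and lists were chosen with earlier results of these data known. All 9 members are accounted for in every comparison. From the other lipid genes, the text names for each comparison and list the 2 called genes with the largest change, and for each member the 2 genes with the most similar profile among those with at least 500 UMIs; some genes that this rule names are not reported here. The lists of lipid regulators and of adipocyte, fibroblast, immune and dissociation-response markers were fixed too. Of the regulators, 6 of 10 were higher in P60 than in P1 SCs (23.9% of all genes), 3 of 9 were higher and 1 lower in pmSCs than in iSCs (21.3% and 22.6%), 2 of 3 were higher in mSCs than in nm(R)SCs (17.7%), 1 of 9 in mSCs than in pmSCs (13.6%) and 3 of 9 in nm(R)SCs than in iSCs (17.4%), and the gap was lower for 1 of 10 (3.14%).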

Additional observations from a re-analysis of the deposited data

Results flagged for a closer look

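The age change in SCs differed from the mean age change of the other 4 classes for 4 genes, by the test of the difference itself in edgeR. It was 1.86 for Ugt8a, 3.05 for Fa2h, 2.32 for Gal3st1 and 0.92 for Scd2, each on the log2 scale and more positive in SCs. For the first 3 genes the level in the other classes was at most 3.63% of that in SCs at P1 and 0.987% at P60. The median of 10 SC markers (Mbp among them) in those classes was 2.55 to 2.94% and 0.803 to 1.23% of the SC level, so it was lower at P60 too. The part of RNA carried over from SCs was not tested.

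The gap between the myelinating and the non-myelinating SC state differed between P60 and P1 for 6 genes, by the same kind of test. It was wider at P60 by 1.61 for Hmgcs1, 1.11 for Sqle, 1.90 for Ugt8a, 1.58 for Fa2h, 0.92 for Cers2 and 1.65 for Scd1. The P60 non-myelinating cells gave 54 UMIs of Hmgcs1, 12 of Ugt8a and 7 of Fa2h in all.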

How the results depend on the processing

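Among the values of single genes under an alternative, 1527 kept their direction and their side of the threshold, 27 newly passed, 59 no longer passed and 0 reversed. Counts of the 9 genes moved further in these settings. DESeq2 called 3 genes in the gap between SC states. With no filter on low counts endothelial cells had 6 calls, mural cells 4 and immune cells 3, where traces of Ugt8a, Fa2h and Gal3st1 entered the test, and another total before clustering gave 5 in endothelial cells. Library size alone gave 2 calls for mural cells and 2 for immune cells.

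Leaving out 1 library at a time, the genes called ranged from 4 to 6 for SCs with age, 8 to 8 for pmSCs against iSCs, 5 to 6 for mSCs against nm(R)SCs, 3 to 6 for mSCs against pmSCs, 3 to 5 for nm(R)SCs against iSCs and 3 to 6 for the gap. Fibroblasts had 6 to 8 calls, endothelial cells 3 to 6, mural cells 1 to 2 and immune cells 1 to 3, and calls ranged from 8 to 8 and 7 to 8 for SCs against each other class at P1 and P60, and from 4 to 4 for the age change in SCs against the others.

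The replicate numbers were not taken to pair libraries across the ages. Deviations of same-numbered libraries correlated at -0.0729 to 0.109 over the 5 classes, and those of differently numbered libraries at -0.108 to 0.0686. Same-numbered values were all positive in fibroblasts (0.0113 to 0.109) and endothelial cells (0.0367 to 0.0778), so these correlations do not settle whether the numbers pair the libraries. With the replicate block 5 genes were called for SCs with age (Sqle -0.42, adjusted p = 0.0991), 4 for mSCs against pmSCs, 4 for nm(R)SCs against iSCs, 7 for fibroblasts, 3 for endothelial cells, 1 for mural cells and 1 for immune cells. With no replicate block 8 were called for pmSCs against iSCs, 5 for mSCs against nm(R)SCs, 4 for the gap, 8 and 8 against the other classes and 4 for the last comparison.

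Over all genes, DESeq2 called 2309 genes between pmSCs and iSCs in place of 4368 and 470 between mSCs and nm(R)SCs in place of 899. Without a P1 library fewer genes passed the filter, and 3120 to 3256 in place of 5068 were called for SCs with age and 1423 to 1491 in place of 2776 for mSCs against pmSCs. Without P60 replicate 3 the gap gave 401 in place of 725. With library size alone 33.2% of the calls between pmSCs and iSCs were higher in place of 48.5%, with the median of all genes at -0.13, and the median against the next class was -0.62 and -0.53 at P1 and P60 in place of -0.72 and -0.71. Depth was low in the P60 SC states, and Fasn and Scd1 could not be tested in mSCs against nm(R)SCs.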

Other observations

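The mitochondria-rich P1 SC cluster (650 cells, median of 2986 UMIs) was left out of all states in the main comparisons. Its Scd2 level was 837, 834 and 800 CPM in the 3 libraries, its Fasn level 128, 160.4 and 151 CPM and its Scd1 level 81.9, 79.7 and 64.6 CPM, each above every library of the pmSC and iSC states. Hmgcs1 stood at 854, 849 and 884 CPM there, Sqle at 129, 142 and 143 CPM, Ugt8a at 390.4, 359.6 and 333 CPM and Fa2h at 192, 207 and 172 CPM, between the iSC and pmSC levels or, for Sqle, within the iSC range. Cers2 (131, 147 and 115 CPM) and Gal3st1 (108, 117.5 and 119 CPM) stood below every iSC library. Ncmap averaged 412 CPM, which is 41.7 times the iSC level but below the 798 CPM of pmSCs. Drp2 averaged 33.8 CPM, against 0.490 CPM in iSCs. These were the largest ratios to iSCs among the state markers compared. Cdkn1c (1.14 times), Pou3f1 (0.730 times) and Mal (0.638 times) were near or below the iSC level. The other markers lay between 1.63 times (Egr2) and 5.95 times (Mag). The mitochondria-rich fibroblast cluster (703 cells) likewise had Scd2 at 385, 428 and 382 CPM and Fasn at 66.4, 78.2 and 47.0 CPM, above all P1 fibroblast libraries. Fibroblast markers summed to 21910 to 26270 CPM in the SC cluster, against 3073 to 3130 CPM in pmSCs and 7152 to 7233 CPM in iSCs. The part of the mitochondrial share and of the fibroblast markers in these levels was not tested.

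P60 SCs that met no state name (108 cells, of which 42.6% held 10 or more Dcn UMIs) had 127, 132 and 256 CPM of Hmgcs1 and 9.08, 24.5 and 0 CPM of Ugt8a (1, 5 and 0 UMIs). A P60 cluster with markers of more than 1 class (274 cells) had 41.3, 30.9 and 29.0 CPM of Hmgcs1. Proliferating P1 SCs had 227, 268 and 247 CPM of Hmgcs1, 103, 115 and 97.1 CPM of Ugt8a and 115, 139 and 130.1 CPM of Gal3st1.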
